A study of Mus musculus with 16 samples.

Results

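Core exons with an intermediate inclusion value in control CD8+ T cells are described here. For most of them, 6962, the splicing graph held no alternative path, so the value alone does not make an exon one that some transcripts keep and others skip. Inclusion was given as percent spliced in (Psi), the fraction of transcripts that hold the exon, from 0 to 1. An exon entered the set when its node in the splicing table was a core exon, was longer than 30 bases, had a Psi in both groups, and had a Psi from 0.1 to 0.9 in the Control gRNA group. This chose 10848 exons in 3839 genes, out of 97651 core exons over 30 bases and 125520 nodes of every kind in 11448 genes. Among them, 18 had coordinates that were listed more than once. The set was selected on Psi in Control gRNA, so that value and its difference from the other group are given as description, without a test. Where values are given as a pair, Control gRNA comes first and Tardbp gRNA follows.

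The cells were CD8+ T cells of OT-I mice, which carry a transgenic receptor for an ovalbumin peptide. Both groups had been electroporated with Cas9, 8 libraries with a scrambled (Control) gRNA and 8 with a Tardbp gRNA, and moved into C57BL/6J recipients. All 16 recipients received the SIINFEKL antigen with agonist antibodies to OX40 and 4-1BB, and sorted CD8+ cells were taken from spleen and lymph nodes on day 4 by the labels. No group without antigen or without costimulation was analysed here, and the labels describe no step that separated edited from unedited cells.

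TDP-43, the product of Tardbp, binds RNA, prefers stretches of alternating U and G, and represses or promotes the use of nearby exons. A cassette exon of a length divisible by 3 can be kept or skipped without moving the reading frame. In T cells such exons are known from Ptprc, which encodes the phosphatase CD45 and whose variable exons are skipped as cells become effectors, and from Ikzf1, whose exons encode the zinc fingers of the Ikaros transcription factor.

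The following exons are shown because the results below turn on them, as the transcript strand reads in GENCODE M21 (GRCm38), with each TGTG, a short run of the letters that TDP-43 prefers, in capitals. TGTG was searched on the transcript strand only, and overlapping matches were joined. Of the core exons with a sequence, 49.2% held TGTG at least once. For Stat4, whose exon is partly coding, only the coding bases are given. The Eif4h exon was added after its values were seen.
Poldip3, exon 3 of Poldip3-201, chr15:83137468-83137554, minus strand: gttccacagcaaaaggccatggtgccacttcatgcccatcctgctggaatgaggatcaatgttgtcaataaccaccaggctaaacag
Stat4, coding part of exon 2 of Stat4-201, chr1:52011784-52011911, plus strand: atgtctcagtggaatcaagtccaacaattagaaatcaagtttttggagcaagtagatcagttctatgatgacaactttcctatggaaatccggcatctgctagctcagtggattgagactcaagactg
Ikzf1, exon 5 of Ikzf1-203, chr11:11748311-11748571, plus strand: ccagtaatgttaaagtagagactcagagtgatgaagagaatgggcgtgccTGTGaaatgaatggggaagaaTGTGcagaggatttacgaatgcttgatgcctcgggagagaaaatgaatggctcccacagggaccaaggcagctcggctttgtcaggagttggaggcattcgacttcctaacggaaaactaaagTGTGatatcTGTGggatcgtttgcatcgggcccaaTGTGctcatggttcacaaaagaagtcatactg
Ptprc, exon 5 of Ptprc-207, chr1:138120020-138120166, minus strand: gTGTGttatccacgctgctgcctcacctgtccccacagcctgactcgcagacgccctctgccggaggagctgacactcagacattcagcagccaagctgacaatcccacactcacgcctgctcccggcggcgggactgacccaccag
Eif4h, exon 5 of Eif4h-205, chr5:134624441-134624500, minus strand: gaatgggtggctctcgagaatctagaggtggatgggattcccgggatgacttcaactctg
Ptprs, exon 13 of Ptprs-201, chr17:56426387-56426504, minus strand: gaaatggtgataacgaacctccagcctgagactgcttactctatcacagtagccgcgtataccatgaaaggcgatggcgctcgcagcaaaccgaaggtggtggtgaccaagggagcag
Kmt2c, exon 28 of Kmt2c-201, chr5:25330796-25330900, minus strand: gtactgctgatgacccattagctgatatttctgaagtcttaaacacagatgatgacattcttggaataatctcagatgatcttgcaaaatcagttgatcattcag
The Ikzf1 exon held 5 TGTG matches and the Ptprc exon 1, and the other 5 held none. No genome was used here, so the introns beside these exons were not read.

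Depth in annotated genes was 73649630 to 93893357 estimated counts for the controls and 56016533 to 94801105 for the Tardbp gRNA libraries. Tardbp itself was at 172 to 207 CPM (counts scaled to library size, median 198) in Control gRNA and 110 to 147 (median 136) in Tardbp gRNA, without overlap (log2 fold change −0.51 ± 0.0558 SE, adjusted p = 8.07e-07 by edgeR, exact two-sided permutation p = 0.000155 on log2 CPM, the smallest that 12870 arrangements allow). The RNA concentration on record, which has no unit, ran from 34.9 to 197.1 for the controls and from 10.1 to 24.0 for the other group. The summed level of 7 CD8 T cell genes was 4721 to 5723 CPM against 6570 to 8266, that of 12 B cell genes 491 to 736 against 658 to 899.7, that of 10 myeloid genes 37.3 to 66.5 against 62.4 to 121.9, that of 8 red cell precursor genes 0.442 to 17.5 against 9.02 to 182, and that of 3 CD4 T cell genes 1.38 to 9.90 against 2.25 to 7.26. By edgeR, 7 of 7 tested CD8 T cell genes and 4 of 4 red cell precursor genes were higher in Tardbp gRNA. For B cell genes it was 3 of 10, for myeloid genes 2 of 9 and for CD4 T cell genes 0 of 3, and none was lower. Over all 16650 genes tested, 23.5% were higher and 23.3% lower, so the B cell and myeloid counts of higher genes lay near the general share. None of these genes was at 0 in every library, but 6 of the B cell, 5 of the myeloid, 4 of the red cell precursor and 2 of the CD4 T cell genes averaged under 1 CPM. Their part in the exon differences below was not tested, and in bulk RNA fewer cells of a type and less RNA per cell cannot be told apart.

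Most of the chosen exons lay near the upper limit. Psi in Control gRNA was from 0.8 to 0.9 for 8924 of the 10848 (82.3%), and 2745 lay within 0.01 of the upper limit, where 2948 exons lay just beyond it. At the lower limit 46 exons lay within 0.01 inside and 52 within 0.01 outside. The nearest inside were an exon of Vav2 with a Psi of 0.10047 in Control gRNA, and one of D5Ertd579e with 0.9. The nearest outside were one of Eif4e2 with 0.099287 and one of Gltscr1 with 0.90001.

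The label of intermediate inclusion fitted only part of the set. For 6962 exons (64.2%) the splicing graph held no alternative path (complexity K0), and their entropy, which measures how evenly paths are used, was 0 throughout. Their Psi in Control gRNA had a median of 0.884 and lay from 0.8 to 0.9 in 99.2%. The other 3886 (35.8%) had at least 1 alternative path and a median Psi of 0.809, with 52.0% of them from 0.8 to 0.9. Annotated transcripts that skip the exon were found for 6.97% of the exons without an alternative path, for 59.8% of those with one, and for 9.32% of the 86191 near-constitutive core exons, whose Psi in Control gRNA was above 0.9.

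The chosen exons sat in genes of low expression. The median gene level was 2.04 CPM for exons without an alternative path, 13.0 CPM for those with one and 43.1 CPM for near-constitutive exons. Below 1 CPM, 72.9% of the core exons without an alternative path were in the set, against 0.134% at 100 CPM and over. With an alternative path the share went from 74.7% below 1 CPM to 5.76% at 100 CPM and over, where 320 exons remained.

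**Figure D1:**
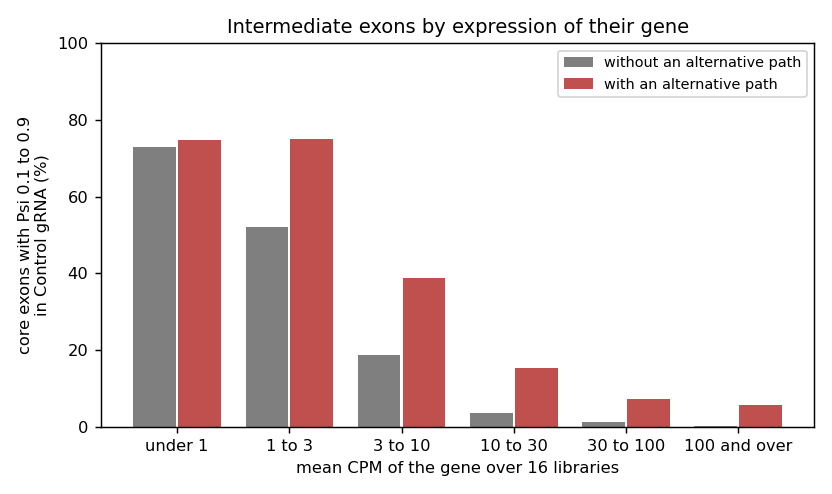
Share of core exons over 30 bases that had a Psi from 0.1 to 0.9 in Control gRNA (y axis, percent), by the mean CPM of their gene over 16 libraries (x axis), without (grey) and with (red) an alternative path in the splicing graph. Both shares are lowest at 100 CPM and over, at 0.134% and 5.76%.

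Chosen exons with an alternative path differed from other core exons in features that did not enter the choice. Among wholly coding exons with an alternative path, the length was a multiple of 3 in 1470 of 2903 chosen exons (50.6%), in 38.8% of 20790 near-constitutive exons and in 82.5% of 263 rarely included exons (Psi below 0.1). Of the chosen exons with an alternative path 74.7% were coding, 6.41% partly coding, 9.68% untranslated and 5.15% in noncoding or decay transcripts only. Of all 86191 near-constitutive exons, with or without an alternative path, 92.7% were coding. The median length was 111 bases for the chosen exons with a path, against 120 for all near-constitutive exons. The median gene level also differed, at 13.0 and 43.1 CPM. Whether annotation and length go with the choice, with having a path or with gene level was not tested. These shares are descriptions, as exons of 1 gene are not independent. The 6-base motif TGTGTG, searched on the transcript strand with overlaps counted, was in 5.63% of the chosen exons and 5.35% of all core exons, and among those of 61 to 200 bases in 4.67% and 4.76%.

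Psi differed by more than 0.1 between the pooled groups for 731 of the 10848 exons (6.74%), in 565 genes. The share was 0.902% over all core exons and 4.7% over all 125520 nodes. Psi was higher in Tardbp gRNA for 404 exons (3.72%, against 0.415% of all core exons and 2.35% of all nodes). It was lower for 327 (3.01%, against 0.487% and 2.35%). An exon with a Psi above 0.9 cannot go up by more than 0.1, so these shares are not set against each other as a result. Of the 731, 724 had an alternative path and 7 did not, which is 18.6% of the 3886 exons with a path and 0.101% of those without, where 3.21% of all 27042 core exons with a path passed. Exons with a path in genes below 3 CPM passed 0.1 in 36.1% of 747 cases, and those in genes of 100 CPM and over in 6.56% of 320. The median difference was 0.0082 over the chosen exons and −0.0011 over all core exons.

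**Figure D2:**
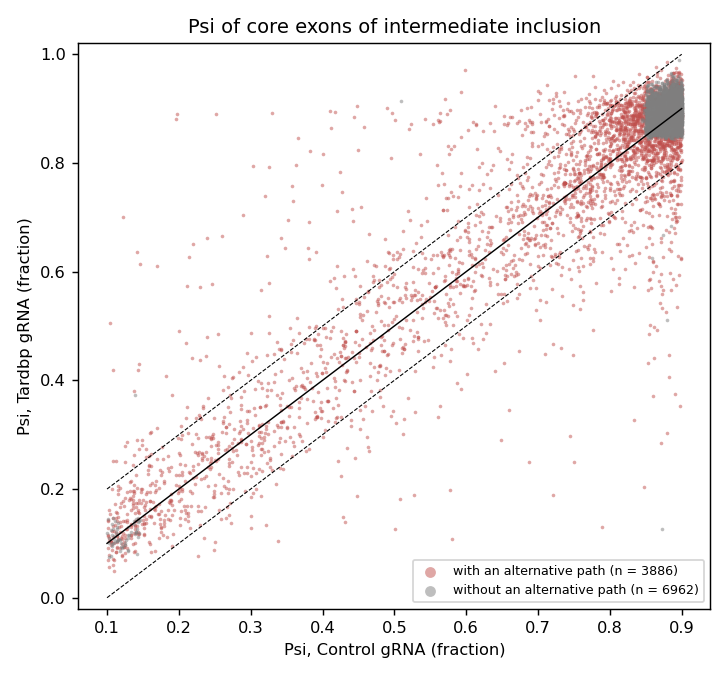
Psi in Control gRNA (x axis) and in Tardbp gRNA (y axis) for the 10848 exons, 1 point each, without (grey, 6962) and with (red, 3886) an alternative path; the solid line marks equal Psi and the dashed lines a difference of 0.1. Nearly all points beyond the dashed lines, 724 of 731, are red.

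Which direction was more frequent depended on the group used to choose the exons. Binned by Psi in Control gRNA, exons with a higher Psi in Tardbp gRNA were the more frequent in every bin below 0.8, for example 23.9% higher and 11.0% lower from 0.5 to 0.6, and the reverse held from 0.8 to 0.9, with 0.392% higher and 2.08% lower. When core exons were instead chosen by a Psi of 0.1 to 0.9 in Tardbp gRNA, 319 of 12341 were higher and 474 lower, and from 0.5 to 0.6 the shares were 10.4% and 23.4%. Chosen by the mean Psi of both groups from 0.2 to 0.8, 277 of 1643 were higher and 279 lower. In the bin from 0.4 to 0.5 in Tardbp gRNA the order stayed, with 18.7% higher and 16.1% lower. In the other bins the order of the directions turned with the group used for the choice, and no direction is read from it.

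**Figure D3:**
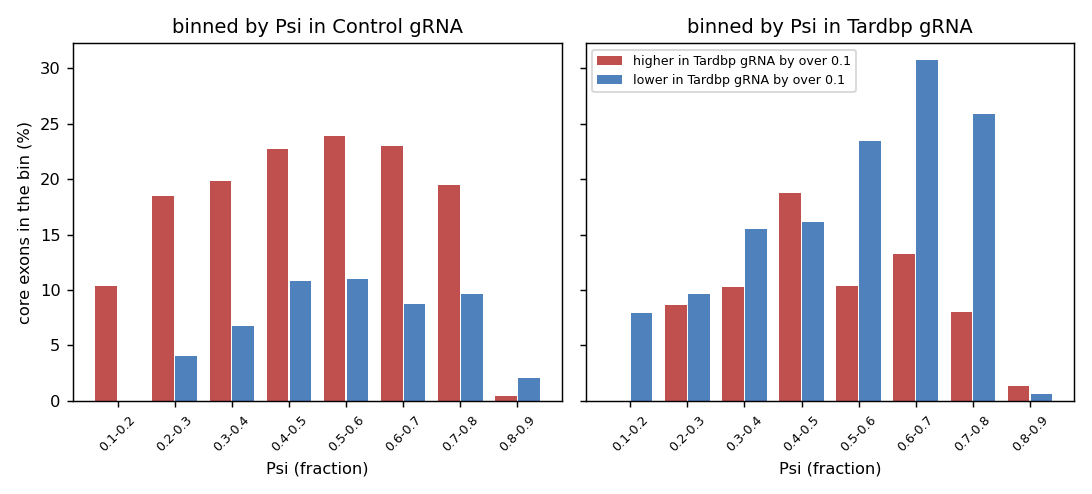
Share of core exons (y axis, percent) whose Psi was higher (red) or lower (blue) in Tardbp gRNA by more than 0.1, in bins of Psi (x axis) taken in Control gRNA (left) or in Tardbp gRNA (right). From 0.5 to 0.6 the pair is 23.9% and 11.0% on the left, and 10.4% and 23.4% on the right.

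In 101 genes 2 or more chosen exons passed 0.1, 267 exons in all, and in 69 of these genes all went one way (42 higher, 27 lower). Nebl, which encodes the actin-binding protein nebulette, had 16 chosen exons, 10 of them higher and 1 lower. Their Psi ran from 0.105 to 0.459 in the controls and from 0.125 to 0.665 in the Tardbp gRNA group. For the Nebl exon named further below, inclusion rebuilt per library went the other way. The level of Nebl fell by 0.74 on the log2 scale (edgeR adjusted p = 8.22e-05). Mdn1, a large ATPase of ribosome assembly, had 23, of which 9 were lower and none higher. Ptprs, a receptor-type tyrosine phosphatase, had 5, of which 4 were higher. These genes were picked after their values were seen, and neighbouring exons share reads and transcripts.

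A value per library was needed for an error, and Psi was given only per group. Inclusion was therefore rebuilt in each library from the transcript counts, as the length-scaled share of the spanning transcripts that hold the exon. This could be tested for 2343 chosen exons (21.6%) in 1674 genes, out of 8030 core exons. Over these 2343, mean rebuilt inclusion in Control gRNA and Psi in Control gRNA had a Spearman correlation of 0.697, a description across exons that share libraries. Mean rebuilt inclusion lay between 0.1 and 0.9 for 1434 of them.

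No chosen exon passed limma's test at an adjusted p under 0.05 with a difference over 0.1, where 3 of 8030 core exons did (0.0374%). At an unadjusted p under 0.05 there were 203 chosen exons (8.66%) and 644 core exons (8.02%), and the test without a trend and the test on a logit scale also called 0. By adjusted p alone 2 chosen exons passed, against 11 of 8030 core exons (0.137%). The median SE of a difference was 0.0434. Of 387 tested exons whose Psi differed by more than 0.1, 283 (73.1%) had a rebuilt difference of the same sign, and both measures come from the same reads. Of those 387, 60 had an unadjusted p under 0.05, 56 of them with the sign of the Psi difference.

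The exons that passed by adjusted p were in Ythdf2 and Stat4. Ythdf2 encodes a reader of methylated adenosine in mRNA that promotes decay, and its exon at chr4:132204132-132205715 holds 1584 bases. Its rebuilt inclusion was 0.936 to 0.967 (median 0.955) in Control gRNA and 0.843 to 0.909 (median 0.886) in Tardbp gRNA, so the groups did not overlap. It fell by 0.0695 ± 0.0112 (SE, n = 8 per group, limma adjusted p = 0.0365), and Psi was 0.862 and 0.741. Without division by transcript length the Ythdf2 difference was −0.0194.

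Stat4 encodes a transcription factor downstream of the interleukin-12 receptor, and its exon, shown above, begins the coding sequence. Rebuilt inclusion was 0.972 to 0.984 (median 0.983) in Control gRNA and 0.937 to 0.9695 (median 0.954) in Tardbp gRNA, again without overlap. It fell by 0.0279 ± 0.0047 (SE, limma adjusted p = 0.0392), and Psi was 0.850 and 0.710. Without division by length the Stat4 difference was −0.0101. Without the Tardbp gRNA library numbered 3, which had the lowest Tardbp level, the adjusted p was 0.0505 for both Stat4 and Ythdf2, on a logit scale it was 0.078 for Stat4, and with libraries 4 to 8 only it was 0.249 for Stat4 and 0.294 for Ythdf2.

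Poldip3 encodes an RNA-binding protein linked to the translation of spliced mRNA, and its exon 3 is a described target of TDP-43. Psi was 0.801 in Control gRNA and 0.565 in Tardbp gRNA. Rebuilt inclusion of Poldip3 was 0.867 to 0.936 (median 0.896) against 0.7025 to 0.871 (median 0.808), with the highest Tardbp gRNA library just above the lowest control. The Poldip3 difference was −0.0889 and did not pass (limma adjusted p = 0.138). The level of the gene fell by 0.32 on the log2 scale (edgeR adjusted p = 9.02e-06).

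Ikzf1 had 2 chosen exons. Psi of the exon shown above was 0.776 and 0.960, but rebuilt inclusion was 0.755 to 0.862 (median 0.826) in Control gRNA and 0.772 to 0.840 (median 0.812) in Tardbp gRNA. These overlapped, and the Ikzf1 difference was −0.0110 (limma adjusted p = 0.847), and 0.00313 without division by length. The other, at chr11:11758195-11758317, had a Psi of 0.893 and 0.919, and no annotated transcript skipped it, so it could not be rebuilt.

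Ptprc had 1 chosen exon among its variable exons, with a Psi of 0.162 and 0.305. Rebuilt inclusion of this Ptprc exon spread from 0.144 to 0.682 (median 0.429) over the control libraries and from 0.353 to 0.668 (median 0.571) in Tardbp gRNA. The control libraries covered the whole range of the other group, and the difference of 0.159 did not pass (limma adjusted p = 0.659). The Ptprc variable exons on either side had a Psi of 0.00395 and 0.0229 in Control gRNA, below the lower limit.

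**Figure D4:**
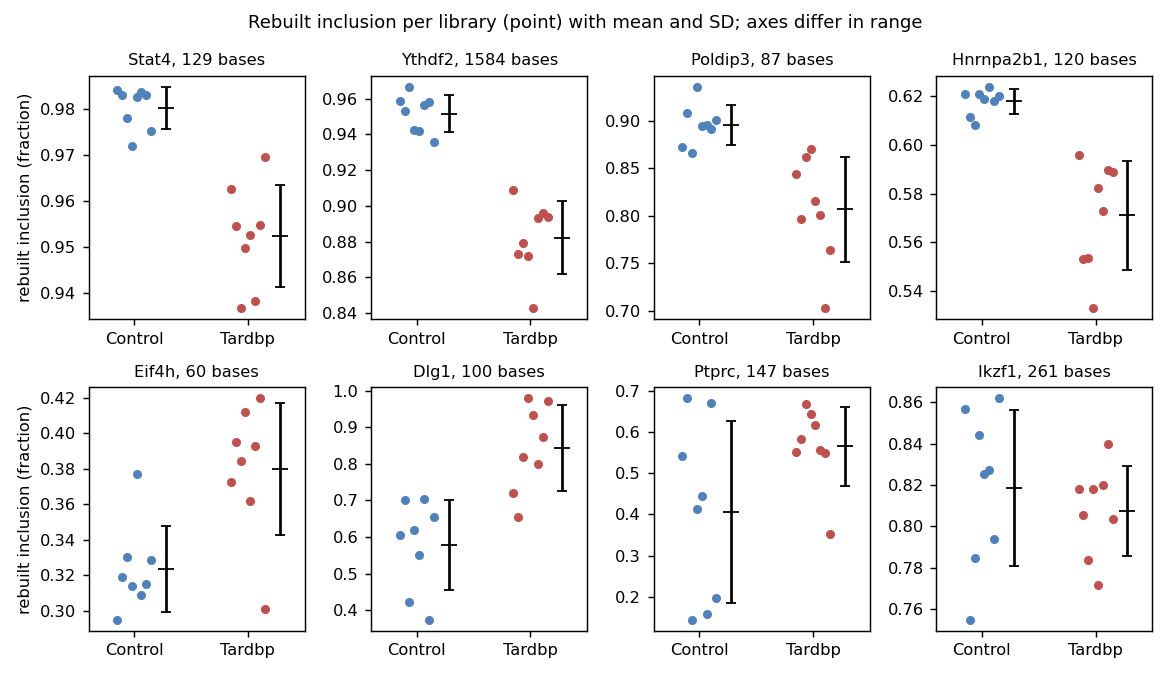
Rebuilt inclusion (y axis, fraction, range set per panel) in each of 8 Control gRNA (blue) and 8 Tardbp gRNA (red) libraries, with the mean and SD, for 8 exons named by gene and length. The groups do not overlap for Stat4, Ythdf2 and Hnrnpa2b1, and overlap for the other 5.

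Among chosen exons that could be rebuilt in genes whose log2 CPM averaged 3 or more, the 8 genes with the highest Psi difference were Ptprs, Rusc1, Nfat5, Nebl, Tesk2, Gm11110, Abcc5 and Ubp1. Rebuilt inclusion had the same sign in 6 of these and the opposite sign for Nebl and Tesk2. The Nebl exon went from a Psi of 0.220 to 0.652, but its mean rebuilt difference was −0.163 (limma adjusted p = 0.726). Its control libraries spread from 0.0281 to 0.924, and the rebuilt medians were 0.121 and 0.0843. The Ptprs exon went from a Psi of 0.198 to 0.890. Its rebuilt inclusion was 0.0825 to 1.0 (median 0.945) in the controls and 0.921 to 1.0 (median 1.0) in the Tardbp gRNA group (limma adjusted p = 0.686). Control libraries 6 and 8 were at 0.0825 and 0.0905, and the rest of the controls at 0.909 to 1.0. The exon of Nfat5, a transcription factor of osmotic stress, went from 0.169 to 0.611, with a median rebuilt inclusion of 0.817 and 0.844. That of Ubp1, another transcription factor, went from 0.342 to 0.663, with medians of 0.379 and 0.5005. The smallest limma adjusted p among the 8 was 0.346, for the noncoding gene Gm11110.

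The 8 genes with the lowest difference were Rps6ka3, Kmt2c, Ptpn4, 5031425E22Rik, Mbp, Crem, Poldip3 and Gprasp1, with the same sign in 5. The exon of Kmt2c, a histone methyltransferase, went from a Psi of 0.834 to 0.328, while rebuilt inclusion was 0.974 to 1.0 in the controls and 0.926 to 1.0 in the Tardbp gRNA group. For Ptpn4, a tyrosine phosphatase, Psi was 0.861 and 0.498, and rebuilt inclusion 0.977 to 1.0 in both groups, rounded. For the kinase gene Rps6ka3, Psi was 0.721 and 0.189, and the rebuilt medians were 0.0893 and 0.0868. The mean rebuilt inclusion differed by −0.00596 for Kmt2c, −0.00192 for Ptpn4 and 0.002 for Rps6ka3 (Tardbp gRNA minus Control gRNA), where the pooled Psi differed by −0.506, −0.363 and −0.531. Without division by length the rebuilt differences were −0.00225, −8.19e-05 and −0.00969. The smallest limma adjusted p of the 8 was that of Poldip3.

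Chosen exons in 96 RNA-binding protein and splicing regulator genes numbered 47, all with an alternative path. Of these, 0 were higher and 3 lower by more than 0.1 (6.38%), with a median difference of −0.0041. Beside this stand 18.6% of all chosen exons with a path, 36.1% in genes below 3 CPM and 6.56% at 100 CPM and over. The list was not matched for gene level, so its share is not read as lower. The exons past 0.1 were in Hnrnph3, Ewsr1 and Ptbp2. Hnrnph3, a splicing factor, had a Psi of 0.858 and 0.652 and a rebuilt inclusion of 0.759 to 0.855 (median 0.7735) and 0.400 to 0.775 (median 0.656), with overlap (limma adjusted p = 0.289). Ewsr1, an RNA-binding protein, had a Psi of 0.885 and 0.741 and rebuilt medians of 0.922 and 0.764 (limma adjusted p = 0.392). The Ptbp2 exon had a Psi of 0.377 and 0.270 but rebuilt medians of 0.893 and 0.896. Its rebuilt difference of 0.0151 had the opposite sign to that of Psi (limma adjusted p = 0.886). Hnrnpa2b1, which encodes a hnRNP protein, had a Psi of 0.7196 and 0.627. Its rebuilt inclusion was 0.608 to 0.624 (median 0.6195) in Control gRNA and 0.533 to 0.596 (median 0.5775) in Tardbp gRNA, without overlap, and the Hnrnpa2b1 difference of −0.0468 did not pass (limma adjusted p = 0.345), but passed in the test without a trend (adjusted p = 0.0204).

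In 89 genes of T cell receptor, costimulation and cytokine signalling, 72 exons were chosen, 5 higher and 2 lower by more than 0.1, all 7 among the 31 with an alternative path (22.6%). Dlg1, a scaffold protein of the immune synapse, had 3 of the 72 chosen exons, described after their values were seen. Its 99-base exon had a Psi of 0.526 and 0.638 and rebuilt medians of 0.701 and 0.917 (limma adjusted p = 0.219). The 100-base Dlg1 exon had a Psi of 0.659 and 0.789. Its rebuilt inclusion was 0.3735 to 0.703 (median 0.611) and 0.655 to 0.979 (median 0.8465). The 34-base Dlg1 exon that follows it had a Psi of 0.361 and 0.279 and rebuilt inclusion of 0.306 to 0.634 (median 0.403) and 0.0413 to 0.351 (median 0.169). For both the 100-base and the 34-base exon the groups overlapped slightly and the limma adjusted p was 0.106. Their rebuilt differences were 0.266 and −0.264. Both are shares of the transcript counts of 1 gene, and libraries high for 1 exon were low for the other. They are therefore not independent results. Traf1, an adaptor of costimulatory receptors that include 4-1BB, had a Psi of 0.474 and 0.611 and rebuilt medians of 0.665 and 0.673. The mean rebuilt difference of Traf1 was −0.00951, opposite in sign to that of Psi (limma adjusted p = 0.917). In 48 T cell transcription factor genes, 39 exons were chosen, 2 higher and 0 lower, those of Ikzf1 and Tcf12, among 27 with an alternative path (7.41%). Tcf12, an E protein, had a Psi of 0.228 and 0.337 and rebuilt medians of 0.478 and 0.544, with wide overlap. The exon of Satb1, a chromatin organiser of T cells, had a Psi of 0.457 and 0.521 but rebuilt medians of only 0.0217 and 0.0403, so the measures placed it on different sides of the lower limit.

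Of 14 genes taken as described TDP-43 targets, 7 held 10 chosen exons, 2 higher and 1 lower, all 3 among 6 with an alternative path. Eif4h encodes a cofactor of the helicase that starts translation, and its exon shown above had a Psi of 0.478 and 0.571. Rebuilt inclusion of Eif4h was 0.295 to 0.377 (median 0.317) and 0.301 to 0.4196 (median 0.389), and the difference of 0.0563 did not pass (limma adjusted p = 0.281). Tnik had a Psi of 0.182 and 0.409, and Synj2bp 0.685 and 0.798, with rebuilt medians of 0.00777 and 0.0534 for Tnik, and 0.8545 and 0.787, the opposite order, for Synj2bp. Without division by length the rebuilt difference went from 0.144 to 0.0905 for Tnik and from −0.0589 to −0.0913 for Synj2bp. Usp15, a deubiquitinase gene, had a Psi of 0.464 and 0.562 and a rebuilt inclusion of 0.0924 to 0.2525 (median 0.146) and 0.157 to 0.288 (median 0.226), with overlap (limma adjusted p = 0.392). The Usp15 difference of 0.0730 was 0.0136 without division by length, and the level of Usp15 fell by 0.95 on the log2 scale (edgeR adjusted p = 1.79e-10).

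In 88 chromatin genes 172 exons were chosen, of which 2 were higher and 4 lower by more than 0.1, all 6 among the 60 with an alternative path. Pbrm1, a subunit of a SWI/SNF remodelling complex, had a Psi of 0.269 and 0.387. Its rebuilt inclusion was 0.0127 to 0.101 (median 0.0537) in Control gRNA, and 0.0229 to 0.528 (median 0.0666) for the other group, so some Tardbp gRNA libraries lay far above while the medians were close (limma adjusted p = 0.651). Kdm2a, a histone demethylase gene, had a Psi of 0.112 and 0.252 and rebuilt medians of 0.0215 and 0.0305. Among the lower exons, Kmt2c is given above, and Hdac5 had a Psi of 0.269 and 0.152 with rebuilt medians of 0.0336 and 0.00246. Kat6b, also lower, had a Psi of 0.890 and 0.758 and no tested rebuilt value. In 104 genes of the cytoskeleton, adhesion and endocytosis 153 exons were chosen, of which 6 were higher and 3 lower, all 9 among the 69 with an alternative path (13.0%). Macf1, a linker of actin and microtubules, had a Psi of 0.554 and 0.872 and rebuilt medians of 0.434 and 0.429. Abi2, an adaptor of the WAVE complex, had a Psi of 0.564 and 0.3525 and rebuilt medians of 0.141 and 0.0696. Kif21b, a kinesin, had a Psi of 0.587 and 0.395, and no annotated transcript skipped its 39-base exon. Without division by length the rebuilt difference went from 0.0109 to 0.00183 for Kdm2a, from −0.0390 to −0.0118 for Abi2 and from 0.0116 to 0.0242 for Macf1. All 6 lists were chosen with earlier results known, and their counts stand beside 18.6% for all chosen exons with an alternative path. That share itself fell with gene level, for which the lists were not matched.

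The genes that hold chosen exons changed in level at a share near that of all genes. Of 3646 such genes tested, 1612 passed by edgeR at an adjusted p under 0.05 (44.2%), 877 higher and 735 lower in Tardbp gRNA, where 46.7% of all 16650 genes passed (23.5% higher, 23.3% lower). Among genes with a chosen exon that has an alternative path, 1229 of 2332 passed (52.7%, with 25.8% higher and 26.9% lower). Among genes with an exon past a Psi difference of 0.1, 270 of 542 passed (49.8%). Stat4 fell by 0.45 and Ythdf2 by 0.23 on the log2 scale (edgeR adjusted p = 3.16e-07 and 4.35e-05), and Hnrnpa2b1 also fell by 0.23 (adjusted p = 0.00018). Ptprc was at 1374 to 1652 CPM against 1328 to 1558 and did not pass.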

How the data were processed

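RNA of 16 libraries, 8 per group, was sequenced by the study after SMART-Seq v4 and Nextera XT as pairs of reads. Groups and numbers were taken from the labels. The authors aligned reads with HISAT2 2.1.0 to mm10, and StringTie 2.1.0 gave the estimated counts of genes and transcripts, deposited without normalization as whole numbers. The authors also deposited a Whippet table, of a version not given in the sources used here, with Psi as a fraction and entropy as a score per node, and a deposited count of read pairs per library. Its 2 Psi columns hold 1 value per group and no error, and which group each belongs to was taken from the study's supplementary headings. Its columns of the authors' own difference and probability were not used. In each table of counts, 10 columns belong to no sample here, and 26248 bare-number lines and 97 spike-in lines were left out. Lines without a gene name took 0.0836 to 0.132% of each total.

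Exons were matched to GENCODE M21 (GRCm38, the assembly of mm10), and 10469 chosen exons matched 1 gene. Rebuilt inclusion was tested with limma 3.58.1 (trend, mean spanning count of at least 50) and genes with edgeR 4.0.16 (quasi-likelihood, TMM, filterByExpr with minimum count 10), in R 4.3.3, with Benjamini-Hochberg adjustment over all features tested. Tardbp was also compared with an exact permutation test in Python 3.11.15. Scripts were tested on simulated data. Alternatives were DESeq2 1.42.0, RLE scaling, no filter, other minimums and thresholds, a logit scale, a replicate block and subsets of libraries. Rebuilt inclusion rests on annotated transcripts and on StringTie's division of reads among them, so exons with no annotated skipping transcript have no value. Division by transcript length weights short transcripts up and moved some differences, as given beside those exons. The methods name 8 recipient mice per group and not the donors of the cells, and p-values measure the spread between these libraries. Named exons were the 8 highest and 8 lowest Psi differences, those past limma's adjusted p, up to 5 genes with the largest difference per list (of which the text gives some), those at the limits, and Ptprc, Ikzf1, Stat4 and Poldip3. The set, the lists and the named genes were chosen with earlier results of these data known.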

Additional observations from a re-analysis of the deposited data

Results flagged for a closer look

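In 94 sets of 8 libraries examined, 19 had 1 library far from the others by Dixon's criterion, where chance gives about 1 in 20 sets, or 4.7. The level of Tardbp was 110.4 CPM in library 3 of Tardbp gRNA, and 129.8 to 147.2 in the others of that group.

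The values of rebuilt inclusion that stood apart in Control gRNA were as follows. Eif4h stood at 0.3768 in library 5, the others being 0.295 to 0.3305. For Hnrnph3, library 1 gave 0.8548 and the rest 0.7591 to 0.7967. Library 2 had 0.8902 for Ikzf2, where the others were 0.9928 to 1.0. Kmt2c stood at 0.9741 in library 3, the others being all at 1.0. For Ptpn4, library 5 gave 0.9772 and the rest all at 1.0. Library 7 had 1.0 for Rps6ka3, where the others were 0 to 0.1727.

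The values of rebuilt inclusion that stood apart in Tardbp gRNA were as follows. Abi2 stood at 0.3485 in library 8, the others being 0.008549 to 0.1216. For Arhgef12, library 1 gave 0.8905 and the rest all at 1.0. Library 3 had 0.216 for Hdac5, where the others were 0 to 0.08287. Kmt2c stood at 0.9264 in library 6, the others being all at 1.0. For Nfatc2, library 3 gave 0.00241 and the rest 0.5152 to 0.8036. Library 8 had 0.3528 for Ptprc, where the others were 0.5505 to 0.6677. Ptprs stood at 0.9206 in library 4, the others being 0.9739 to 1.0. For Rapgef1, library 3 gave 0.9876 and the rest 0.9949 to 1.0. Library 6 had 1.0 for Rps6ka3, where the others were 0.05195 to 0.1044. Rusc1 stood at 0.6165 in library 1, the others being 0.9274 to 1.0. For Satb1, library 6 gave 0.09172 and the rest 0.026 to 0.05342. Library 4 had 0.7877 for Tnik, where the others were 0.008259 to 0.2259.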

How the results depend on the processing

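Rebuilt inclusion called 0 chosen exons under each of the alternatives that kept the difference threshold at 0.1, and 1 with a threshold of 0.05. Adjusted p alone passed 0 to 5 of them. Genes with chosen exons passed edgeR in 1612 cases and in 1387 to 1711 under the alternatives. The number of exons with a Psi difference past the threshold went from 731 to 1999 with a threshold of 0.05 and to 218 with 0.2, to 477 of 1607 for Psi from 0.2 to 0.8 in Control gRNA, and to 300 of 3296 in genes whose log2 CPM averaged 3 or more. Choosing on Psi in Tardbp gRNA, requiring an alternative path, and the test without a trend were added after seeing the data. Among named exons, the rebuilt difference changed sign for Rps6ka3 (−0.00969) and Ikzf1 (0.00313) without division by length, and for Traf1 (0.0103) with libraries 4 to 8. Among named genes, the fold change changed sign for Dlg1 (0.0012) with the block and for Rps6ka3 (0.07) with libraries 4 to 8. The cause was not tested.

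Libraries carry numbers 1 to 8 in both groups, and same-numbered libraries did not deviate together: correlations of log2 CPM were −0.0048 to 0.16, over 0.1 in 2 of 8 pairs, and 2 of 8 correlated best with their own number. With the replicate block 0 chosen exons were called (182 at an unadjusted p under 0.05), the adjusted p of Stat4 and of Ythdf2 was 0.34, 1629 genes with chosen exons passed, and Tardbp stayed at −0.51 on the log2 scale.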
